A study of Homo sapiens with 28 samples.

Results

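The 10 genes described here set how readily a cell dies by apoptosis. They are the BCL2-family members BCL2A1, BCL2, BCL2L1, MCL1, BAX, BAK1, BCL2L11 and PMAIP1, with CFLAR and XIAP. They were taken by symbol from the deposited tables, where they are 10 of 56809 genes, and all 10 were among the 18624 genes kept by a filter on low counts. BAX and BAK1 open the outer mitochondrial membrane and release cytochrome c, which starts the caspases. BCL2, BCL2L1 (BCL-xL), MCL1 and BCL2A1 (BFL-1) hold them in check, and the BH3-only proteins BCL2L11 (BIM) and PMAIP1 (NOXA) bind and neutralise those guards, NOXA having a preference for MCL1 and BFL-1. CFLAR (c-FLIP) acts at another point, where it blocks activation of caspase-8 at death receptors, and XIAP inhibits active caspases. NF-kB is known to induce several survival genes, BCL2A1, BCL2L1, CFLAR and XIAP among them, and monocytic cells are known to use MCL1 and BCL2A1.

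U937, a monocytic line of human origin, gave 28 libraries of polyadenylated RNA that compare clones that lack single NF-kB subunits with control clones. Lipopolysaccharide (LPS), a bacterial outer membrane component, activates NF-kB through TLR4. Each of 14 clones gave 1 library with LPS at 500 ng/ml and 1 untreated library, both labelled 6 h. The groups were p50, p52, cREL and RELB knockout clones (2 of each), p65 knockout clones (3), and control clones that had received non-specific guide RNAs (CTR, 3), each with LPS and untreated. The subunits are encoded by NFKB1, NFKB2, REL, RELB and RELA in the order p50, p52, cREL, RELB and p65, and every line is 1 clone, so a clone's own history cannot be told apart from its genotype. By the labels there were 3 sample batches. Batch A had knockout clones only, in batch B the single control was CTR replicate 2, and in batch C the knockouts were p65 replicates 2 and 3.

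The total of estimated counts ran from 12643438 to 22122428 over libraries. RELA stood at 52.1 TPM with LPS and 43.7 TPM untreated (TPM being a level scaled by transcript length and library total) in the 2 libraries labelled p65 replicate 1. In p65 replicates 2 and 3 (4 libraries) it ran from 3.20 to 8.19 TPM, and in the other genotypes (22 libraries) from 23.2 to 38.3 TPM. The libraries labelled p65 replicate 1 thus lack the low RELA messenger RNA of the other p65 clones. Whether p65 protein was absent from that clone was not tested. The main p65 results are given also without p65 replicate 1. All 9 monocytic markers read were above 0 in at least 1 library, led by LYZ at a mean of 1047 TPM, with CD14 at 1.17 and MPO at 0.0417 TPM. Of 5 T and NK cell markers, NKG7 averaged 339.8 TPM, while TRAC averaged 3.86, CD2 0.469, GNLY 0.34 and CD3E 0.00591 TPM. MS4A1 of B cells and PF4 of platelets were at 0 in every library.

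The promoters of CFLAR, PMAIP1 and BCL2A1 are shown because the first 2 genes rose with LPS in control clones, in at least 1 of the fits below, and BCL2A1, a known NF-kB target, did not pass. MCL1 also rose in some of those fits, but no promoter was found for it. CFLAR had several windows, and the one printed is the only one of them with a match. Each printed window runs from 250 bases before to 50 bases after a RefSeq start (GRCh38.p14), 5′ to 3′ on the strand of the gene. Capitals mark matches to a loose motif, GGG followed by any 3 bases and TTCC, searched on both strands. The kB consensus named below is GGG, then A or G, any base, A or T, C or T, C or T, and CC. The capitals in CFLAR match it too, and those in PMAIP1 do not. The windows are chr2:201118466-201118765 (plus strand), chr18:59899746-59900045 (plus strand) and chr15:79971147-79971446 (minus strand).

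CFLAR: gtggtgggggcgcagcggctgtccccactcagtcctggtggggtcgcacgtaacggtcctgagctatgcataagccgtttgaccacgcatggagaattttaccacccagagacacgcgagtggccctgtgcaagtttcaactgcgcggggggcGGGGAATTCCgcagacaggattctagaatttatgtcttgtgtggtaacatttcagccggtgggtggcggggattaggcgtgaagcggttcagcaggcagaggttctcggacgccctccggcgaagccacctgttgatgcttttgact

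PMAIP1: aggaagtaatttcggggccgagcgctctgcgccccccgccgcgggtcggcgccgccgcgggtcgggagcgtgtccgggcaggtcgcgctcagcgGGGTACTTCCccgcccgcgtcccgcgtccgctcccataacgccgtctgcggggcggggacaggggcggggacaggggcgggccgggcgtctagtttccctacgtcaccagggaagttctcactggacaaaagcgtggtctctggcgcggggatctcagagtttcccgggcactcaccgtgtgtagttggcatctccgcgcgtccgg

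BCL2A1: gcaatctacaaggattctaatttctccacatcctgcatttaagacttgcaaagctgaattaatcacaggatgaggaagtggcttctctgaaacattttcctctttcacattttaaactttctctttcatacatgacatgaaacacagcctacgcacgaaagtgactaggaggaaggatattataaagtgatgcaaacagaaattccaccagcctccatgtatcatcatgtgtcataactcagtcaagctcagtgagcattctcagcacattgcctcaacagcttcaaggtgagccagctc

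RefSeq promoters were found for 9 of the 10 genes (all but MCL1), 15 windows in all. The kB consensus was in 1 of the 15, the CFLAR window printed above, as GGGGAATTCC from 97 to 88 bases before the start. The other CFLAR windows had no match to either motif. The consensus was in 5.91% of 35116 promoters of all genes. The loose motif was in 2 of the 15, with the same CFLAR letters and GGGTACTTCC in PMAIP1 from 156 to 147 bases before the start, and in 6.52% of all promoters. The BCL2A1 window had no match, which says only that these letters are not in it. Both motifs were chosen with the sequences in view, and a match describes letters, not a bound site.

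In level, BCL2A1 led the survival proteins' messenger RNAs in most libraries. It made up 29.2 to 88.4% (median 69.9%) of the summed TPM of BCL2A1, BCL2L1, MCL1 and BCL2 in a library. BCL2L1 made up 7.20 to 41.1% and MCL1 4.18 to 25.1%, whereas BCL2 never passed 4.56%. Over the 28 libraries BCL2A1 ran from 34.6 to 524.0 TPM and BCL2 from 0.44 to 6.25 TPM, the widest ranges among the 10 genes (15.2-fold and 14.2-fold from lowest to highest). BAK1, one of the 2 pore-forming killers, was steadiest, at 75.9 to 145.5 TPM (1.92-fold), and its partner BAX ran from 14.4 to 52.2 TPM. In the order of the 12 group means, neighbours mostly did not differ beyond the larger of their SDs. That held for all 11 neighbouring pairs of MCL1, CFLAR, XIAP, BAX, BAK1, BCL2L11 and PMAIP1, for 10 of 11 pairs of BCL2A1 and BCL2, and for 9 of 11 of BCL2L1.

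**Figure D1:**
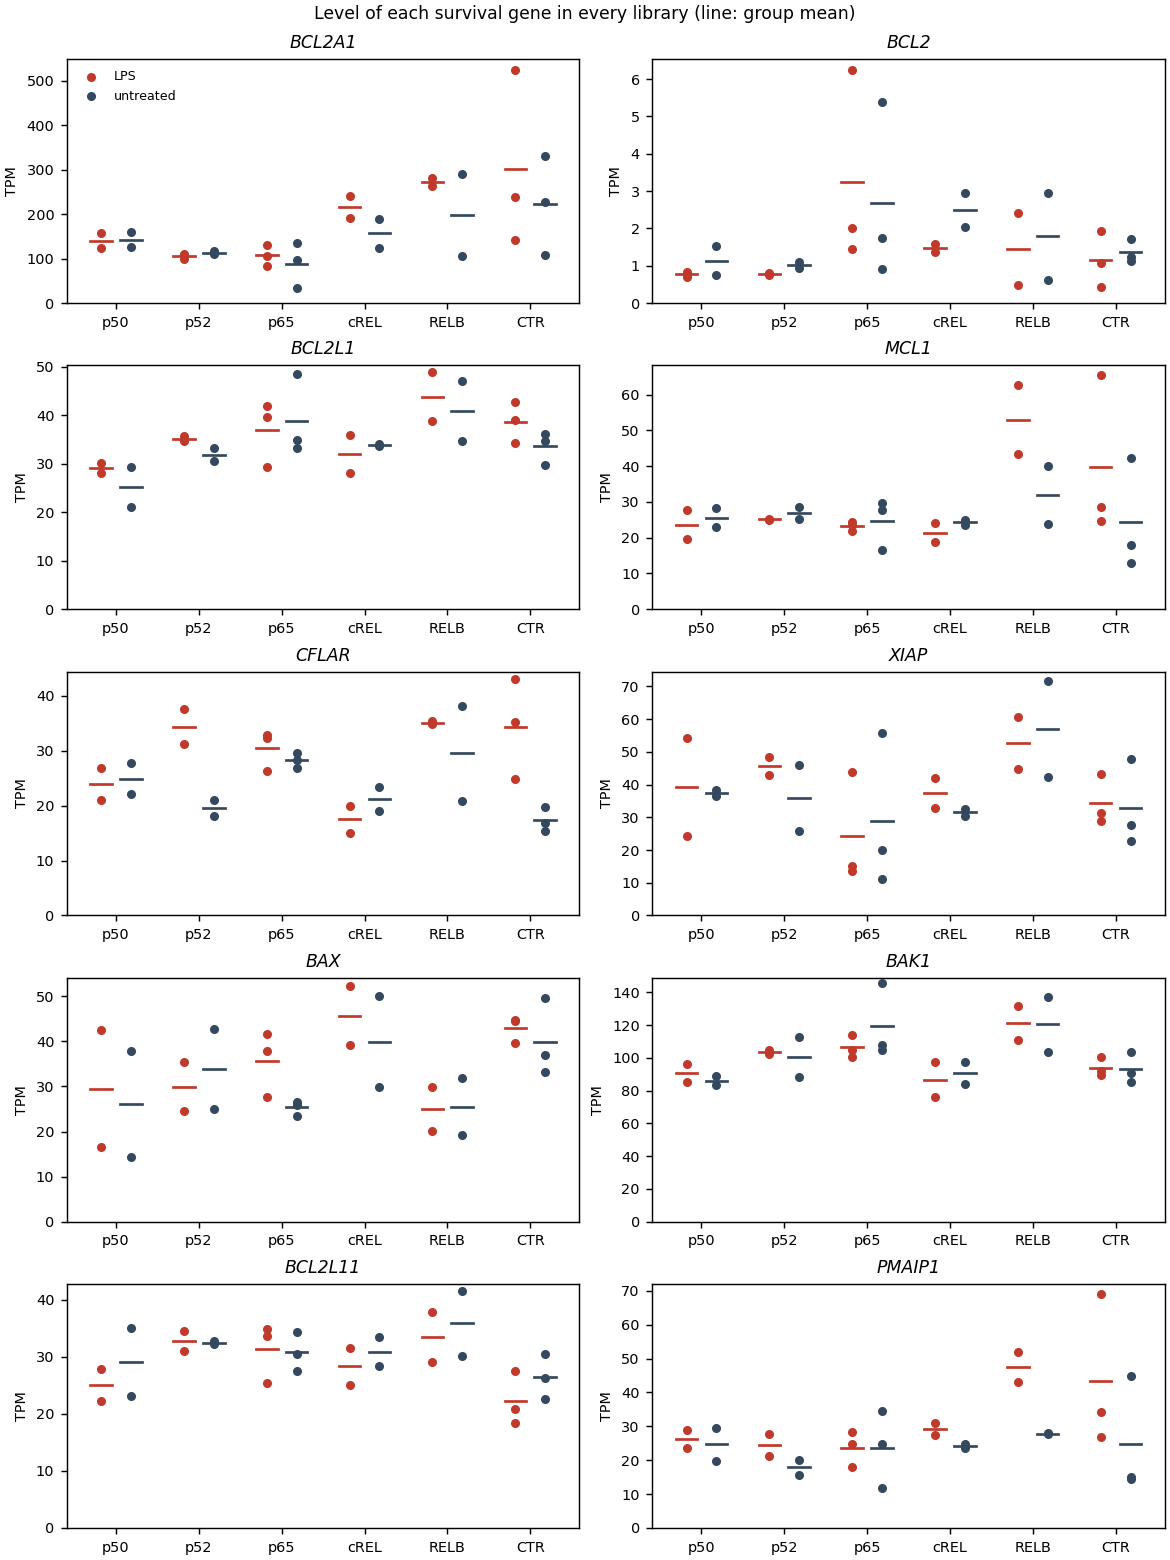
TPM (vertical axis, linear, from 0) of each of the 10 genes in all 28 libraries, by genotype (horizontal axis); each point is a library, red with LPS and dark untreated, and each line is a group mean. CFLAR in CTR shows separate groups (24.9 to 43.0 TPM with LPS and 15.4 to 19.8 TPM untreated). Among libraries with LPS, MCL1 and PMAIP1 are highest in CTR replicate 2 and the RELB clones.

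The plot of levels by library shows where each gene stands before any test. MCL1 reached 65.6 TPM with LPS and 42.2 TPM untreated in CTR replicate 2, and PMAIP1 reached 69.1 and 44.8 TPM in the same clone. The other 2 control clones held MCL1 at 28.7 and 24.7 TPM with LPS and 12.9 and 18.0 TPM untreated. This clone stood above the other 2 controls for both genes at both treatments, and it is the single control of batch B. In bulk libraries, fewer cells expressing a gene cannot be told apart from less RNA per cell.

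The first question was which of these genes LPS moves in control clones. CFLAR, the caspase-8 inhibitor, was the only one of 10 that passed the test, and it rose. It stood at 43.0, 24.9 and 35.2 TPM with LPS in CTR replicates 1, 2 and 3, against 15.4, 19.8 and 16.9 TPM untreated. Every treated control library lay above every untreated one, which 3.94% of all tested genes also did in this direction. The log2 fold was 0.84 ± 0.17 (SE; edgeR quasi-likelihood test, Benjamini-Hochberg adjusted p = 0.0221; higher in 3 of 3 clones). The background was 0.408% of tested genes called in this comparison. The call was lost without CTR replicate 1 (edgeR adjusted p = 0.490) or CTR replicate 3 (0.343), and narrowly (0.0506 to 0.0568) without p50, p52 or cREL replicate 1 or cREL replicate 2. It was also lost without a batch term or a count filter, in batch C alone and on log2 TPM.

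The effective length of CFLAR, the length the authors used per gene and library, moved with LPS as well, by −17.6%, 7.9% and −15.5% in CTR replicates 1, 2 and 3. With that length as an offset in the fit the log2 fold was 0.99 ± 0.21 (SE; edgeR adjusted p = 0.0444). The part of a change in transcript use was not tested.

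MCL1 and PMAIP1, a guard and its BH3-only partner, were higher with LPS in all 3 control clones, and neither passed unless the fit was changed, as with each clone as its own block. MCL1 stood at 28.7, 65.6 and 24.7 TPM with LPS in CTR replicates 1, 2 and 3, against 12.9, 42.2 and 18.0 TPM untreated. Its log2 fold was 0.74 ± 0.19 (SE; edgeR adjusted p = 0.143), and 0.76 ± 0.14 with the clone block (SE; edgeR adjusted p = 0.00887). PMAIP1 stood at 34.2, 69.1 and 27.0 TPM with LPS, against 14.4, 44.8 and 14.9 TPM untreated. Its log2 fold was 0.88 ± 0.30 (SE; edgeR adjusted p = 0.542), and 0.92 ± 0.14 with the block (SE; edgeR adjusted p = 0.00212). CFLAR kept its call with the block (log2 fold 0.83 ± 0.16, SE; edgeR adjusted p = 0.00959). In the blocked fit 3 of the 10 genes were thus called, where 1.27% of all tested genes were. MCL1 also passed with limma voom and the clone as a random effect (adjusted p = 0.0107), with DESeq2 (0.0425) and with edgeR without p65 replicate 1 (0.0377), and PMAIP1 with voom (0.0323). These fits called 1.05% (voom), 0.832% (DESeq2) and 0.395% (without p65 replicate 1) of tested genes.

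The remaining 7 genes did not pass in control clones in either fit. BCL2A1 stood at 141.2, 238.4 and 524.0 TPM with LPS, against 108.9, 227.8 and 330.7 TPM untreated. It was higher in 3 of 3 clones, and the clones differed more from each other than with LPS (log2 fold 0.51 ± 0.52, SE; edgeR adjusted p = 1). BCL2L1 had a log2 fold of 0.28 ± 0.13 (SE), also higher in 3 of 3 clones (edgeR adjusted p = 0.971). XIAP, BAX, BAK1 and BCL2L11 had log2 folds of 0.24, −0.02, 0.03 and −0.02, and BCL2 one of −0.51. The median log2 fold over the 10 genes was 0.26, against 0.00 over all genes tested.

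**Figure D2:**
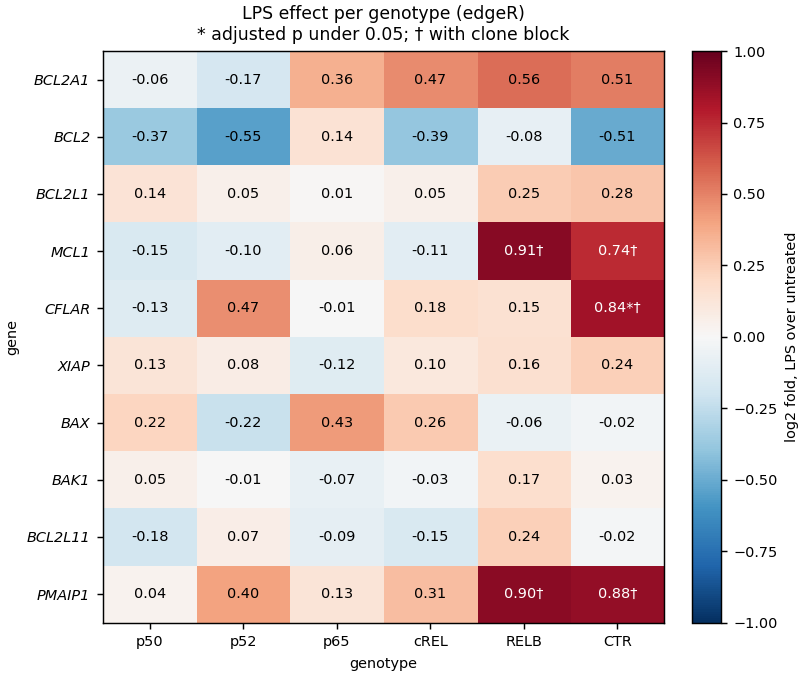
Log2 fold of LPS over untreated (edgeR) for the 10 genes (rows) in each genotype (columns), coloured from −1 (blue) to 1 (red); an asterisk marks an adjusted p under 0.05 and a dagger the same in the fit with the clone as a block. Marks stand only in the CTR and RELB columns, on CFLAR (0.84), MCL1 (0.74 and 0.91) and PMAIP1 (0.88 and 0.90).

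In the knockouts, RELB clones stood nearest to CTR for MCL1 and PMAIP1. MCL1 stood at 43.3 and 62.6 TPM with LPS in RELB replicates 1 and 2, against 23.8 and 40.0 TPM untreated. Its log2 fold was 0.91 ± 0.23 (SE; edgeR adjusted p = 0.356; with the clone block 0.91, adjusted p = 0.0221). PMAIP1 stood at 51.8 and 43.1 TPM with LPS, against 28.0 and 27.7 TPM untreated, at 0.90 ± 0.37 on the log2 scale (SE; edgeR adjusted p = 1; with the block adjusted p = 0.0263). Treated and untreated RELB libraries were separate in TPM for both genes, as for 6.74% of tested genes in this direction. MCL1 in RELB also passed with limma voom (adjusted p = 0.0246). Called genes made up 0.129% of those tested in RELB, and 0.435% with the block.

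The p50, p52, p65 and cREL clones gave no call among the 10 genes, with or without the block, against a background of 0.0161, 0.0215, 0.0268 and 0.0107% of tested genes in that order (0.0322, 0.0268, 0.0161 and 0.0215% with the block). Unadjusted p under 0.05 was reached by 1 gene in p52 (CFLAR) and by 0 in p50, p65 and cREL. CFLAR in p52 stood at 31.2 and 37.6 TPM with LPS, against 21.0 and 18.1 TPM untreated (log2 fold 0.47 ± 0.20, SE; edgeR adjusted p = 1). Its effective length fell by 19.2 and 18.6% in those 2 clones, so the counts moved less than the TPM. In cREL, the length of CFLAR was 17.9 and 51.8% greater with LPS, and its TPM were 20.0 and 14.99 with LPS, against 19.0 and 23.4 untreated. CFLAR in p65 replicates 1, 2 and 3 stood at 26.3, 32.3 and 32.8 TPM with LPS, against 26.8, 28.3 and 29.6 TPM untreated (log2 fold −0.01; 0.01 without p65 replicate 1).

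Some genes that did not pass still had treated and untreated libraries apart in TPM. In p52, BCL2L1, CFLAR and PMAIP1 lay wholly higher with LPS and BCL2 and MCL1 wholly lower, as did 16.7% and 12.1% of tested genes. In cREL, BCL2A1, XIAP and PMAIP1 lay higher and BCL2 lower, as did 12.2% and 14.4%. In p65 BAX lay higher, at 27.6 to 41.6 TPM with LPS against 23.5 to 26.6 TPM untreated, as did 1.91% of tested genes, and in p50 all 10 genes overlapped.

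The sign of the LPS change was then read clone by clone, on log2 CPM (counts scaled to a common library total), not on TPM. MCL1 was higher with LPS in 3 of 3 CTR and 2 of 2 RELB clones, in 1 of 3 p65 clones, and in none of the 6 p50, p52 and cREL clones. PMAIP1 was higher in 13 of 14 clones, which 0.8% of tested genes were in at least 13 clones. In p65 replicate 3 its change was only 0.0034, and its TPM were lower with LPS (28.4, against 34.6 untreated). BCL2L1, CFLAR and BAX were higher in 10 of 14 clones, BCL2A1 in 9, XIAP in 8, BCL2L11 in 6, BAK1 in 4 and BCL2 in 3. The CFLAR count includes cREL replicate 2 (0.06), where TPM were 14.99 with LPS and 23.4 untreated. Averaged over the 6 genotypes, the PMAIP1 log2 fold was 0.44 ± 0.14 (SE; edgeR adjusted p = 0.554) and 0.46 ± 0.07 with the clone block (SE; edgeR adjusted p = 0.00106). Averaged over the 5 knockouts with the block, it was 0.37 (edgeR adjusted p = 0.0438). Called genes made up 0.886% and 0.43% of those tested in these blocked averages, and 0.403% and 0.177% without the block.

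**Figure D3:**
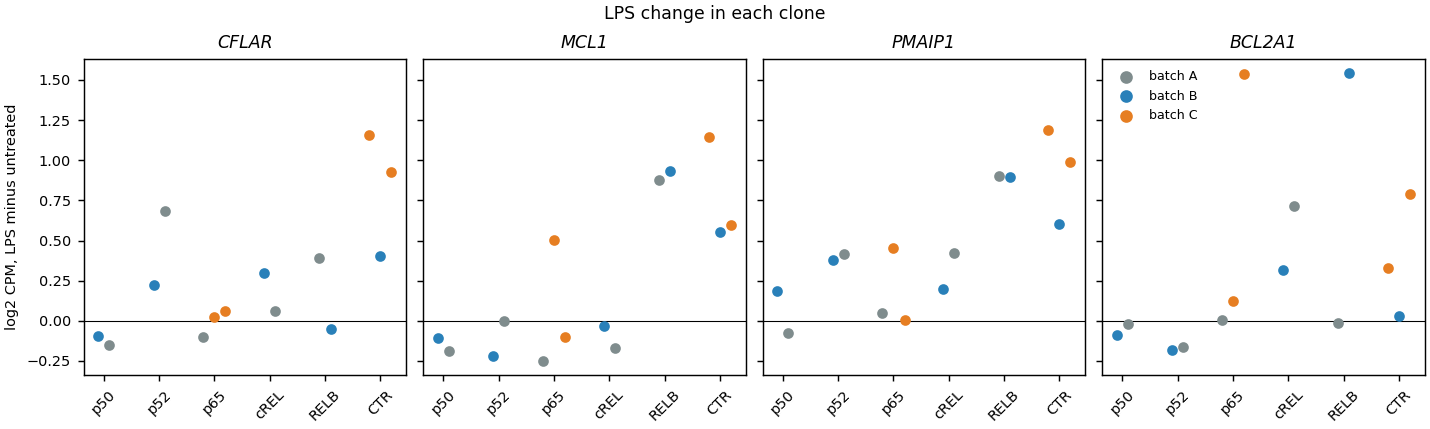
Change in log2 CPM (counts scaled to a common library total) with LPS in each of 14 clones (points, coloured by sample batch) for CFLAR, MCL1, PMAIP1 and BCL2A1, by genotype. All CTR points lie above 0 for the 4 genes, MCL1 is above 0 elsewhere only in both RELB clones and in p65 replicate 2, and BCL2A1 exceeds 1.5 in RELB replicate 2 and p65 replicate 3.

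The plot of changes by clone shows BCL2A1 with its largest differences in 2 clones of different genotypes. It stood at 262.6 TPM with LPS and 106.2 TPM untreated in RELB replicate 2, and at 84.2 and 34.6 TPM in p65 replicate 3. In RELB replicate 1 it stood at 280.2 and 289.2 TPM, so the RELB clones did not share the change. The cREL clones held 239.8 and 190.6 TPM with LPS, against 188.6 and 124.2 TPM untreated, the p50 clones 156.7 and 123.5 against 159.3 and 125.9, and the p52 clones 99.3 and 110.3 against 109.6 and 116.4.

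Whether a knockout changed the LPS response was tested as a difference from CTR, and none of the 10 genes passed in any of 5 knockouts by edgeR or DESeq2. The share of all tested genes called by edgeR was 0.0161% in p65 and 0 in the other 4, and with the clone block 0.0752% in p65, 0.0107% in p50, 0.00537% in p52, and 0 for cREL and RELB. For the mean of the 5 knockouts, where 0 and 0.0698% were called, none of the 10 passed either. Unadjusted p under 0.05 was reached by 2 of 10 genes in p50, p65 and cREL and by 1 in p52 and RELB. These were CFLAR in p50 (difference in log2 fold −0.96 ± 0.26, SE), p65 (−0.84 ± 0.23; −0.82 without p65 replicate 1), cREL (−0.66 ± 0.26) and RELB (−0.68 ± 0.26), and MCL1 in p50 (−0.89 ± 0.30), p52 (−0.85 ± 0.30), cREL (−0.85 ± 0.30) and p65 (−0.69 ± 0.27; −0.60 without p65 replicate 1). The lowest adjusted p among these was 0.995 in edgeR, and 0.278 with the clone block. MCL1 in RELB differed from CTR by 0.17 ± 0.30 (SE). The LPS response of MCL1 in RELB exceeded that of the 4 other knockouts by 0.98 ± 0.26 (SE; edgeR adjusted p = 1; 0.0929 with the block), where 0.00537 and 0.0322% of tested genes were called. All differences from CTR share the same 3 control clones.

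**Figure D4:**
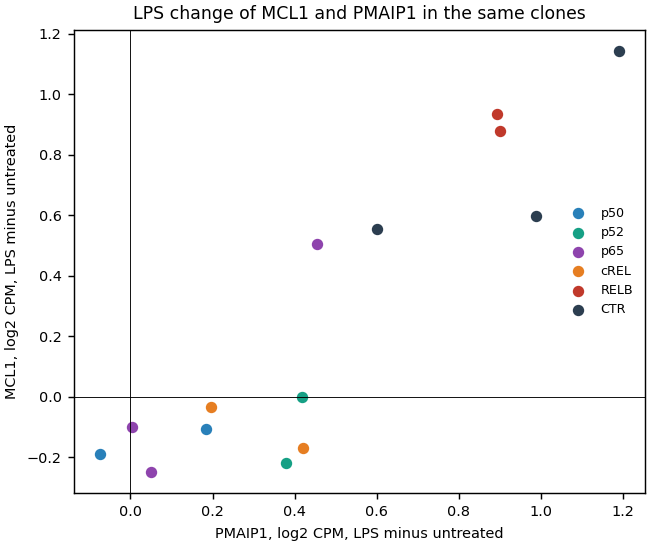
Change with LPS of MCL1 (vertical axis) against PMAIP1 (horizontal axis), both in log2 CPM, with 1 point for each of 14 clones coloured by genotype. The CTR and RELB clones lie at the upper right, and Pearson's r over the clones is 0.90.

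MCL1 and PMAIP1 varied together more closely than any other pair of the 10 genes. Pearson's r of log2(TPM + 1) was 0.76 over 28 libraries, and that of the LPS change was 0.90 over 14 clones, values that describe libraries sharing clones and batches. The next pair over libraries was BCL2L1 with BAK1 (0.67), whose LPS changes had r = 0.17. BCL2A1 was closest, among 9756 other genes of at least 5 TPM, to EIF1 (r = 0.87), SELENOK (0.84), FCER1G (0.80), PRDX1 (0.79) and DCTN6 (0.78). Among the genes closest to CFLAR were PIK3R5 (0.74), MXD1 (0.74), UGP2 (0.71) and PLEK (0.70).

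The knockouts were then compared with CTR at the same treatment. With LPS, MCL1 fell in the mean of the 5 knockouts and was the only one of 10 genes to pass. MCL1 was 27.8 and 19.5 TPM in p50, 25.1 and 25.1 in p52, 22.0, 24.5 and 23.5 in p65, 24.04 and 18.7 in cREL and 43.3 and 62.6 in RELB, against 28.7, 65.6 and 24.7 TPM in CTR. Knockouts and controls overlapped, through the RELB clones above all. The log2 fold was −0.74 ± 0.16 (SE; edgeR adjusted p = 0.0347), in a comparison where 0.838% of tested genes were called. It was lower than the batch's own control mean in 4 of 4 knockout clones of batch B (mean −0.95, from −1.30 to −0.08, 1 control) and 2 of 2 of batch C (mean −0.39, 2 controls). Without LPS, MCL1 was also lower in 4 of 4 knockout clones of batch B (mean −0.54), and in batch C it was higher in 1 of 2 (mean 0.27). With LPS but without CTR replicate 2, the log2 fold of the 5 knockouts was −0.29 (edgeR adjusted p = 0.75). Leaving out CTR replicate 1 or 3, either p50, p52 or cREL clone, or RELB replicate 2 also took the adjusted p over the threshold (edgeR, 0.0534 to 0.163), whereas without p65 replicate 1 the fold was −0.91 (adjusted p = 0.00324, 1.96% of genes called). The call was also lost with a length offset, without a batch term and on log2 TPM.

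PMAIP1 had the next lowest adjusted p in that comparison, at −0.94 ± 0.26 on the log2 scale (SE; edgeR adjusted p = 0.0902). It stood at 23.5 and 28.97 TPM in p50, 21.2 and 27.7 in p52, 24.9, 17.9 and 28.4 in p65, 27.4 and 31.0 in cREL and 51.8 and 43.1 in RELB, against 34.2, 69.1 and 27.0 TPM in CTR. Without p65 replicate 1, PMAIP1 passed at −1.24 (edgeR adjusted p = 0.00677), as it did without p65 replicate 3 (−1.19, 0.00337), and without CTR replicate 2 the log2 fold was −0.15 (edgeR adjusted p = 0.949). The other 8 genes did not pass. XIAP had a log2 fold of −0.74, BCL2A1 −1.20, CFLAR −0.37, BCL2 1.06, BCL2L11 0.31, BAK1 0.13, BCL2L1 −0.06 and BAX −0.08. XIAP passed without p50 replicate 1 (−0.93, edgeR adjusted p = 0.0445) and was at −0.07 without a batch term. BCL2A1 was at −0.54 without CTR replicate 3 and at −1.83 without CTR replicate 2, and did not pass in either. None of the 10 genes had knockouts and controls apart in TPM, as 1.12% of tested genes did.

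**Figure D5:**
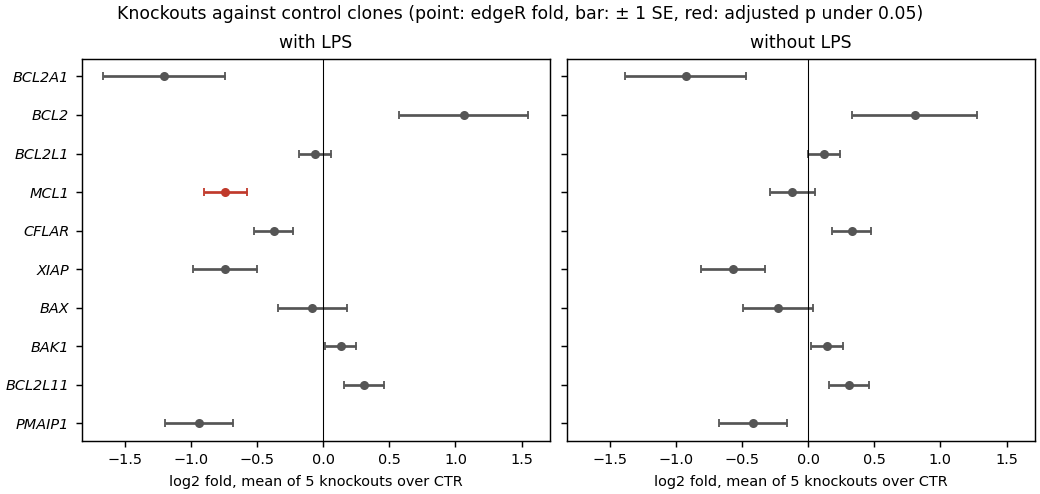
Log2 fold of the mean of 5 knockouts over CTR (points, edgeR) ± 1 SE (bars) for the 10 genes, with LPS (left panel) and without LPS (right panel); red marks an adjusted p under 0.05. MCL1 with LPS is the only red point, at −0.74, and lies at −0.12 without LPS.

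No single knockout gave a call among the 10 genes with LPS by edgeR. The share of tested genes called was 0.129% in p50, 0.0698% in p52, 0.993% in p65, 0.199% in cREL and 0.0483% in RELB. Unadjusted p under 0.05 was reached by 4, 4, 6, 5 and 2 of the 10 genes in that order of knockouts. The share of all tested genes at that level is not given, so these counts do not show an excess among the 10. DESeq2 made 8 calls, 4 of them in p65 (BCL2A1, BCL2, MCL1 and XIAP), 2 in p52 (MCL1 and PMAIP1), and MCL1 in p50 and in cREL. It called 3.49%, 1.43%, 1.27% and 1.23% of tested genes in those 4 knockouts, in that order. Without p65 replicate 1, edgeR made 5 calls, MCL1 in p50, p52 and cREL and PMAIP1 in p50 and p52, where 0.726% (p50), 1.29% (p52), 0.623% (cREL) and 0.401% (p65) of tested genes were called. Without p65 replicate 3 it made 4, PMAIP1 in p50, p52 and p65 and MCL1 in cREL, where 0.13% (p50), 0.108% (p52), 0.513% (p65) and 0.2% (cREL) were called. Median log2 folds of the 10 genes were −0.35 in p50, −0.21 in p52, −0.36 in p65, −0.30 in cREL and −0.07 in RELB, against −0.05, −0.02, 0.01, −0.02 and −0.04 over all genes tested. The comparisons share their controls.

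In p65 clones with LPS, BCL2A1, BCL2 and XIAP had the largest log2 folds of the 10 genes, and none passed by edgeR with all clones. BCL2A1 was 131.4, 106.8 and 84.2 TPM in p65 replicates 1, 2 and 3, against 141.2, 238.4 and 524.0 TPM in CTR. The groups did not overlap, as was the case for 4.38% of tested genes lower in p65. The log2 fold was −1.75 ± 0.54 (SE; edgeR adjusted p = 0.146), −1.90 without p65 replicate 1 (edgeR adjusted p = 0.249) and −0.79 without CTR replicate 3 (edgeR adjusted p = 0.502). BCL2 stood at 1.45, 2.02 and 6.25 TPM, against 0.44, 1.93 and 1.07 TPM in CTR (log2 fold 1.86 ± 0.54, SE; edgeR adjusted p = 0.112; 2.13 without p65 replicate 1). It passed without p65 replicate 2 (2.17, edgeR adjusted p = 0.0428) and was 1.13 without p65 replicate 3 (0.392). The p65 replicate 3 value is the highest of the 28 libraries, and the groups overlapped. XIAP stood at 44.0, 15.2 and 13.6 TPM, against 31.3, 43.4 and 28.8 TPM in CTR (log2 fold −1.09 ± 0.28, SE; edgeR adjusted p = 0.0698; −1.18 without p65 replicate 1). It passed without p50 replicate 1 (edgeR adjusted p = 0.0237) or p50 replicate 2 (0.0223). Its 2 low p65 clones are those with low RELA and also those of batch C, so among p65 clones RELA level and batch cannot be told apart. Within batch C these 2 clones lay below the mean of the 2 controls with LPS, by −1.44 and −1.08 in log2 CPM. In the fit of batch C alone the log2 fold was −1.30 ± 0.38 (SE; edgeR adjusted p = 0.469). Without LPS, XIAP stood at 55.8, 11.2 and 20.0 TPM in p65 replicates 1, 2 and 3, against 22.6, 48.0 and 27.6 TPM in CTR.

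MCL1 in p65 (22.0 to 24.5 TPM with LPS) also lay below all 3 controls (24.7 to 65.6 TPM). Of the cREL clones with LPS, MCL1 (18.7 to 24.04 TPM) and CFLAR (14.99 to 20.0 TPM) lay below the controls, as did 12.3% of tested genes, and in p50 BCL2L1 did (28.0 to 30.1 TPM, against 34.3 to 42.7 TPM in CTR), as did 12.8%. BCL2A1 in p52 with LPS (99.3 and 110.3 TPM) also lay below all 3 controls, as did 8.52% of tested genes there (log2 fold −1.84 ± 0.68, SE; edgeR adjusted p = 0.351). BAX in p52 lay below the controls too, and BAK1 and BCL2L11 above them, as did 16% of tested genes. In RELB with LPS, XIAP (60.6 and 44.7 TPM), BAK1 (131.6 and 111.2 TPM) and BCL2L11 (29.2 and 37.9 TPM) lay above all 3 controls, and BAX (20.1 and 29.9 TPM) below, as did 16.1% and 8.26% of tested genes. None of those passed the test.

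Without LPS, no knockout gave a call among the 10 genes by edgeR, singly or averaged. The share of tested genes called was 0.0537% in p65, 0.0107% in RELB, 0 in p50, p52 and cREL, and 0.0322% for the mean of the 5 knockouts. Unadjusted p under 0.05 was reached by 4 genes in p65, 2 in cREL and 1 in each of p50, p52 and RELB, and DESeq2 made 1 call (BCL2A1 in p65, adjusted p = 0.0448), where it called 1.71% of tested genes. The BCL2A1 log2 fold in p65 was −1.60 ± 0.54 (SE; edgeR adjusted p = 0.256), and −2.02 without p65 replicate 1 (edgeR adjusted p = 0.255). CFLAR, which did not pass, stood at 27.8 and 22.0 TPM in p50, 26.8, 28.3 and 29.6 in p65 and 20.8 and 38.2 in RELB, against 15.4, 19.8 and 16.9 TPM in CTR. These 3 knockouts did not overlap CTR, as was so for 7.75% of tested genes higher in p50, 11.1% in p65 and 22% in RELB. Also apart from CTR were BAX, lower in p65 (3.24% of tested genes) and RELB (5.51%), BCL2L1, lower in p50 (12.1%), BCL2, lower in p52 (8.75%) and higher in cREL (9.39%), BCL2L11, higher in p52 (13.7%), and BAK1, higher in p65. The CFLAR log2 fold in p65 was 0.34, and 0.35 without p65 replicate 1. Averaged over the 5 knockouts, its log2 fold was 0.33 ± 0.15 (SE; edgeR adjusted p = 0.542).

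Among other apoptosis genes, BIRC3 and BID changed. BIRC3 (cIAP2), a ubiquitin ligase of the TNF receptor pathway and a known NF-kB target, rose with LPS in CTR to 10.3, 3.78 and 8.84 TPM, against 0.30, 0.90 and 0.48 TPM untreated. The log2 fold was 3.62 ± 0.65 (SE; edgeR adjusted p = 0.0086), and the mean over the 5 knockouts was 1.99 ± 0.34 (SE; edgeR adjusted p = 0.00828). The call in CTR was lost without CTR replicate 1 (edgeR adjusted p = 0.187) or 3 (0.231), and with the length offset (0.130). The effective length of BIRC3 changed with LPS by −59.3, 44.3 and 83.5% in CTR replicates 1, 2 and 3. In all, the call passed in 21 of 25 alternatives. The mean over knockouts passed in 18 of 24, and not with the length offset (edgeR adjusted p = 0.0969). BIRC3 was lower in p65 than in CTR with LPS, at 0.15, 0.56 and 0.87 TPM against 10.3, 3.78 and 8.84 TPM (log2 fold −3.06 ± 0.62, SE; edgeR adjusted p = 0.0170). That call was lost without p65 replicate 1 (−2.87, edgeR adjusted p = 0.0812), p65 replicate 2 (0.0737) or 3 (0.0824), and CTR replicate 1 (0.0729) or 2 (0.0629), and it passed in 17 of 24 alternatives. Untreated p65 clones held BIRC3 at 0, 0.31 and 0.17 TPM. Its log2 fold with LPS in p65 was 2.35 ± 0.70 (SE), and p65 against CTR without LPS gave −1.79 ± 0.73 (SE). The LPS response in p65 differed from that of CTR by −1.27 ± 0.97 (SE), and none of these passed. BIRC3 was the only gene to pass of 7 in the list of IAPs and their antagonists, in which DIABLO (118.3 TPM) and BIRC5 (45.02 TPM) had the highest mean levels. BID, which links caspase-8 to the mitochondrion, fell in p65 with LPS to 101.3 to 119.2 TPM, against 139.9 to 220.1 TPM in CTR (log2 fold −0.88 ± 0.17, SE; edgeR adjusted p = 0.0102; −0.97 and 0.0375 without p65 replicate 1). The call was lost without CTR replicate 1 (0.0659), and it passed in 20 of 24 alternatives. It was the only one to pass of 10 tested in a list of 13 further BCL2-family genes. Of 10 death receptor pathway genes, led by TNFRSF1A (144.4 TPM), and 7 apoptosome and caspase genes, led by CYCS (645.8 TPM), none passed in any comparison by edgeR. In CTR with LPS, 2 and 0 of these reached an unadjusted p under 0.05.

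In GRCh38 with GENCODE 29, CFLAR lies on chromosome 2 from 201116104 to 201176687, MCL1 on chromosome 1 from 150574551 to 150579738, PMAIP1 on chromosome 18 from 59899948 to 59904306, and BCL2A1 on chromosome 15 from 79960889 to 79971446. All 4 are annotated as protein coding. P-values of the main fit rest on the spread between libraries of a group, with both libraries of a clone counted as independent. Those of the clone block rest on the spread of the LPS change between clones.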

How the data were processed

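The deposited values are estimated counts per gene symbol, TPM scaled by the authors to a common total per library, and effective lengths in bases, made with Salmon 0.11.3 and FastQC 0.11.7 on GRCh38, per the submitters' processing notes. Salmon options were not stated there. Estimated counts were rounded and fitted in edgeR 4.0.16 under R 4.3.3: filterByExpr (minimum count 10, minimum total 15), TMM, and a robust quasi-likelihood fit of 12 groups plus batch (14 residual degrees of freedom, biological coefficient of variation 31.7%). It treats the 2 libraries of a clone as independent. The threshold was an adjusted p of 0.05 (Benjamini-Hochberg, over all genes of a comparison, 27 comparisons). Counts of genes at an unadjusted p under 0.05 are given without the share over all genes, and none is read as an excess. Clone numbers pair the treated and untreated libraries by the labels. Deviations from the group mean correlated at 0.203 to 0.441 within pairs, and 14 of 14 clones were closest to their own partner. In a group of 2 clones these deviations mirror each other, so both clones give the same outcome. The clones of such a group are also in different batches, so a shared batch cannot be told apart from a shared clone. A fit that blocks on the clone (coefficient of variation 21.0%, 8 residual degrees of freedom) is given where it changes a call. Alternatives were DESeq2 1.42.0, limma 3.58.1 (voom with clone as a random effect, correlation 0.355; log2 TPM with pseudocounts of 1 and 0.1), other size factors, an offset for length, batch C alone, leaving out the filter or the batch term, and omitting each clone. CPM per clone used a prior count of 2. Genes named are the 10 members, passing genes of the 4 other lists and up to 2 of highest TPM per list; some items are not reported here. Members and lists were chosen with earlier results of these data known. The test was also run on simulated counts that held no clone or batch effect, so that run cannot show how the fit handles either.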

Additional observations from a re-analysis of the deposited data

How the results depend on the processing

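Of the 60 tests of LPS in 10 genes and 6 genotypes, 1 passed (0.102% of tests over all genes), and this count was 2 with DESeq2 (0.226%), 4 with voom (0.242%), 5 with the clone block (0.3%), and 0 without a filter, without a batch term and on both log2 TPM scales. Leaving out single clones gave 0 to 2. For knockouts against CTR with LPS, 0 of 50 passed (0.288% over all genes), against 8 with DESeq2 (1.72%), 1 with voom (0.377%), 11 without a filter (1.33%) and 4 with a replicate block by number (0.754%), and 0 to 5 without single clones (5 without p65 replicate 1, 0.762%; 4 without p65 replicate 3, 0.193%). Without LPS, 0 passed (0.0129%), against 1 with DESeq2 (0.713%) and 3 without a filter (1.04%). In the averaged comparisons 1 passed (0.243%), against 2 with DESeq2 (0.762%), 3 with voom (0.319%), 5 without a filter (0.577%), 2 with a replicate block by number (0.426%), 0 with a length offset, without a batch term and on both log2 TPM scales, and 0 to 3 without single clones. Differences in LPS response gave 0 in every setting that covered them all. CFLAR in CTR with LPS kept its direction but not its call without a filter (0.83), without a batch term (0.86), in batch C alone (1.04) and on log2 TPM with pseudocounts of 1 (0.92) and 0.1 (0.95), and ran from 0.66 to 1.04 without single clones. The call was also lost, at adjusted p of 0.0506 to 0.0568, without p50, p52 or cREL replicate 1, or cREL replicate 2. Without a batch term, XIAP turned to 0.028 in the mean of 5 knockouts against CTR without LPS, and with LPS to 0.0068 in cREL and 0.011 in p50. PMAIP1 in p52 without LPS ran from −1.30 to 0.26 without single clones, turning to 0.26 without CTR replicate 2. None of those 4 passed in either setting, and the cause was not tested. The replicate block on the clone changed no other call of the 10 genes than those given. With 2 or 3 clones a group and batch A without a control, small differences were not detectable.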
